A study of Mus musculus with 2 samples.

Results

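The 9 genes described here belong to the Nrf2 antioxidant pathway: Nfe2l2, Keap1, Gclc, Gclm, Slc7a11, Txnrd1, Srxn1, Hmox1 and Nqo1. They were selected by symbol from the 19059 genes listed for both libraries, and each symbol matched 1 gene. The pathway was of interest because tomatidine, a steroidal alkaloid of tomato plants, acts in worms through SKN-1, the homologue of Nrf2. Transcripts were counted in single cells of hippocampus from C57BL/6 wild-type mice. In the study, the animals were 21 months old at the start and received for 3 months either a diet with 0.05% tomatidine or the control diet without it. Tissue of 4 mice was pooled into 1 library per group, so mice cannot be told apart within a library and the 2 groups differ by a single library each. Differences that arose while the libraries were made cannot be told apart from the diet, no statistical test was possible, and no p-value is given. After filtering, 15115 control cells with 206744516 unique molecular identifiers (UMIs, counted transcript molecules) and 14502 tomatidine cells with 200551962 UMIs were kept. The median depth was 7077 UMIs per control cell and 7408 UMIs per tomatidine cell.

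Nrf2, the product of Nfe2l2, is a transcription factor that pairs with small Maf proteins and binds antioxidant response elements in the promoters of protective genes. Keap1 is the adaptor that hands Nrf2 to a Cul3 ubiquitin ligase in unstressed cells, and electrophiles or oxidants that modify Keap1 let Nrf2 accumulate. Because Nrf2 is regulated mainly at the level of the protein, its transcript need not follow its activity, and its targets are the usual transcript readout. Those measured here make glutathione (Slc7a11, Gclc, Gclm), reduce thioredoxin and peroxiredoxins (Txnrd1, Srxn1), degrade haem (Hmox1) and reduce quinones (Nqo1). In brain, astrocytes are known for a stronger Nrf2 response than neurons.

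The antioxidant response element has the core TGACNNNGC, in which the fourth base can also be G (TGAGNNNGC). RefSeq promoter windows (GRCm38.p6, identical in coordinates to the mm10 build of the files) were at hand for 7 of the 9 genes, in 9 windows. The 250 bases before each start were searched on both strands. TGACNNNGC occurred in 10.2% of all 32851 promoters, TGAGNNNGC in 14.4%, and either motif in 23.0%, so a match is common and is only a description. Among the 9 genes, 5 had a match in at least 1 window, with 6 matches in all. Each match is shown in the sense direction of its gene with up to 20 bases on either side, and the capitals mark the motif or its reverse complement.
Nfe2l2, 240 to 232 bases before the start, chr2:75704875-75704913, minus strand: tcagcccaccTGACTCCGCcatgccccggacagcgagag
Gclm, 134 to 126 bases before the start, chr3:122245403-122245451, plus strand: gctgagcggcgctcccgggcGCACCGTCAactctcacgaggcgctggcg
Slc7a11, 97 to 89 bases before the start, chr3:50443682-50443730, minus strand: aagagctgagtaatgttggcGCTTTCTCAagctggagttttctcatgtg
Txnrd1, 92 to 84 bases before an internal start, chr10:82859094-82859142, plus strand: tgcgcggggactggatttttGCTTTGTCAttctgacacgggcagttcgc
Srxn1, 158 to 150 bases before the start, chr2:152105346-152105394, plus strand: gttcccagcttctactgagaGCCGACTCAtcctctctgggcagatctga
Srxn1, 45 to 37 bases before the start, chr2:152105459-152105507, plus strand: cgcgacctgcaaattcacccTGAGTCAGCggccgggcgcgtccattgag
Srxn1 held 2 matches in 1 window. The windows of Nqo1 and Keap1 and the other 2 windows of Txnrd1 did not hold these letters, which says nothing of elements elsewhere. Hmox1 and Gclc were not searched.

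Cells were grouped by clustering without the 9 genes, and clusters were named from marker genes. The names are a reconstruction and not the cell types of the study. Clusters with markers of dentate granule, CA1 and CA3 neurons were present, together with thalamic or subcortical neuron-like cells from outside the hippocampus. Of the classes, 12 had at least 50 cells in each library and were compared: neurons (dentate granule-like, CA1-like, CA3-like, interneuron-like, thalamic or subcortical neuron-like), glia (astrocyte-like, oligodendrocyte-like, oligodendrocyte precursor (OPC)-like), immune cells (microglia-like, border macrophage-like) and vascular or meningeal cells (endothelial-like, fibroblast-like). The libraries differed in their make-up. Fibroblast-like cells were 1.89% of control and 3.62% of tomatidine cells, and choroid plexus-like cells numbered 347 against 32. Thalamic or subcortical neuron-like cells numbered 586 and 934 and came mainly from different clusters in each library. Endothelial-like cells held endothelial markers at 12776 and 14164 CPM, but also mural markers at 6716 and 8267 CPM and astrocyte markers at 8076 and 5796 CPM. Levels given for that class may thus include those of other cells, which was not tested. The libraries shared 262 barcodes among the kept cells. Levels are given as CPM, the counts per 1e+06 UMIs of the same class and library. Since the number of probes per gene is not given in the sources used here, each gene is compared only with itself. Intervals are exact 95% intervals, Poisson for levels and conditional binomial for ratios, and cover counting error only. Classes are said to overlap or to lie apart by the levels of the 2 libraries alone, without these intervals.

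Over all cells, Slc7a11 was the gene that differed most between the libraries, with 4849 UMIs (23.5 CPM) in control and 6797 UMIs (33.9 CPM) in tomatidine. The log2 ratio of tomatidine over control was 0.53 (0.48 to 0.58). Srxn1 was also higher in the tomatidine library, at 47.3 and 53.5 CPM (log2 ratio 0.18, 0.14 to 0.22). Nfe2l2 itself was lower there, at 21.5 CPM from 4443 UMIs and 18.7 CPM from 3754 UMIs (log2 ratio -0.20, -0.26 to -0.14). Txnrd1 was lower by less, at 53.7 and 49.7 CPM (log2 ratio -0.11, -0.15 to -0.07). The remaining 5 genes lay within 0.1 of no difference. Keap1 stood at 82.5 and 81.3 CPM, Gclc at 61.2 and 60.2 CPM and Gclm at 62.2 and 63.7 CPM. Hmox1 had 10.3 and 9.71 CPM, and Nqo1 had 7.07 and 6.87 CPM. Of the Nqo1 UMIs, 232 in control and 25 in tomatidine came from choroid plexus-like cells, which numbered 347 and 32. The ratio of Nqo1 without them was not computed. The make-up of the libraries and the level within cells cannot be told apart in its all-cell ratio. With a difference of at least 1.5-fold in either direction and at least 20 UMIs over both libraries as the mark for a call, 0 of the 9 genes were called, against 7.61% of the 15710 genes with that many UMIs. The median log2 ratio was -0.02 over the 9 genes and 0.03 over all genes.

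**Figure D1:**
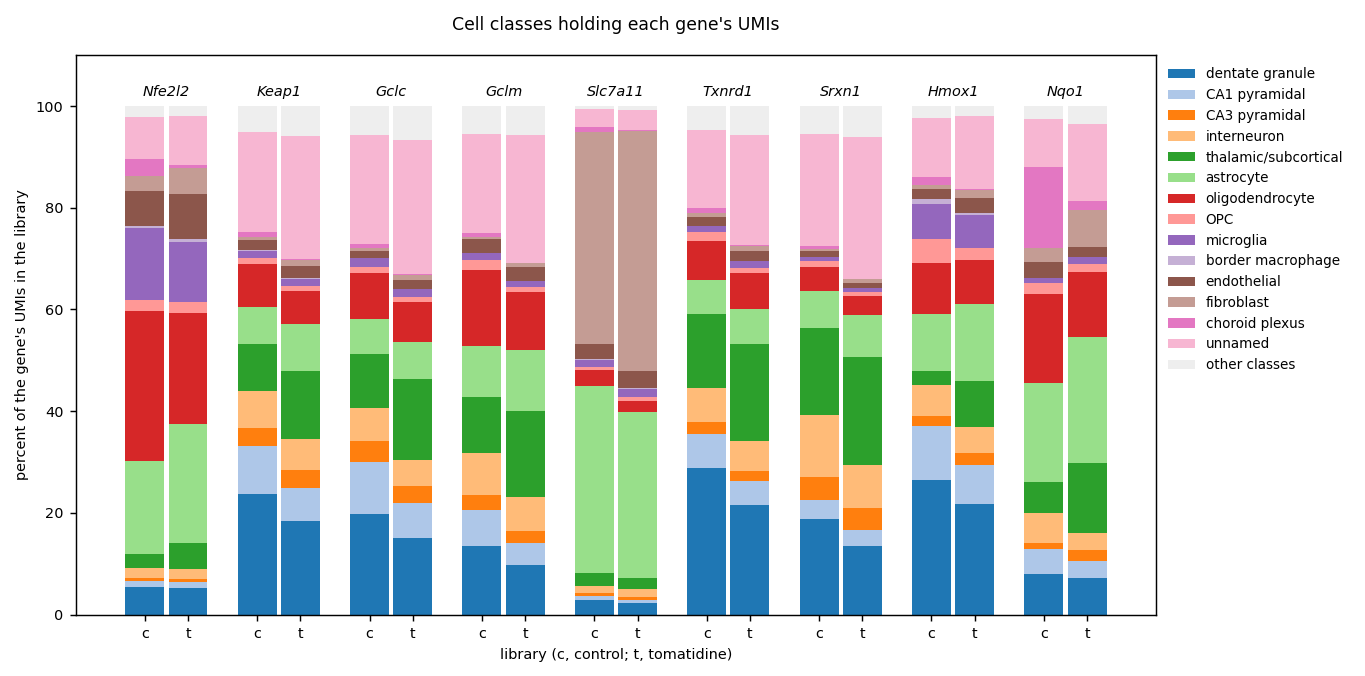
Share of each gene's UMIs that came from each cell class, in percent of the gene's UMIs in that library, as stacked bars with control and tomatidine side by side. Fibroblast-like cells gave 41.7% and 47.0% of the UMIs of Slc7a11, and choroid plexus-like cells gave 15.9% of those of Nqo1 in control and 1.8% in tomatidine.

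Within the classes, few of the 9 genes differed by 1.5-fold, and those that did had few UMIs. Of 108 pairs of gene and class, 102 had at least 20 UMIs, and 13 of them were past 1.5-fold, 9 higher and 4 lower in the tomatidine library. In dentate granule-like cells 1 of 9 genes was past 1.5-fold (4.56% of all genes tested there), in CA1-like cells 0 of 9 (9.12%), in CA3-like cells 1 of 9 (6.98%), in interneuron-like cells 2 of 9 (7.68%) and in thalamic or subcortical neuron-like cells 1 of 9 (16.2%). Among glia the counts were 0 of 9 in astrocyte-like cells (5.84%), 0 of 9 in oligodendrocyte-like cells (6.96%) and 2 of 9 in OPC-like cells (8.66%). Microglia-like cells had 2 of 9 (8.89%) and border macrophage-like cells 2 of the 3 genes with enough UMIs (29.5%). Endothelial-like cells had 1 of 9 (8.58%) and fibroblast-like cells 1 of 9 (10.8%). With 9 genes, a single one is 1 in 9, so counts of 0 to 2 cannot be set apart from these shares. The median log2 ratio of the 9 genes ran from -0.11 in CA1-like cells to 0.12 in microglia-like cells, with 0.58 over the 3 genes of border macrophage-like cells, while that of all genes ran from -0.04 to 0.08. The 13 pairs came from 4 genes: Slc7a11, Hmox1, Nqo1 and, in border macrophage-like cells, Nfe2l2. Gclc, Gclm, Keap1, Txnrd1 and Srxn1 were past 1.5-fold in no class.

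**Figure D2:**
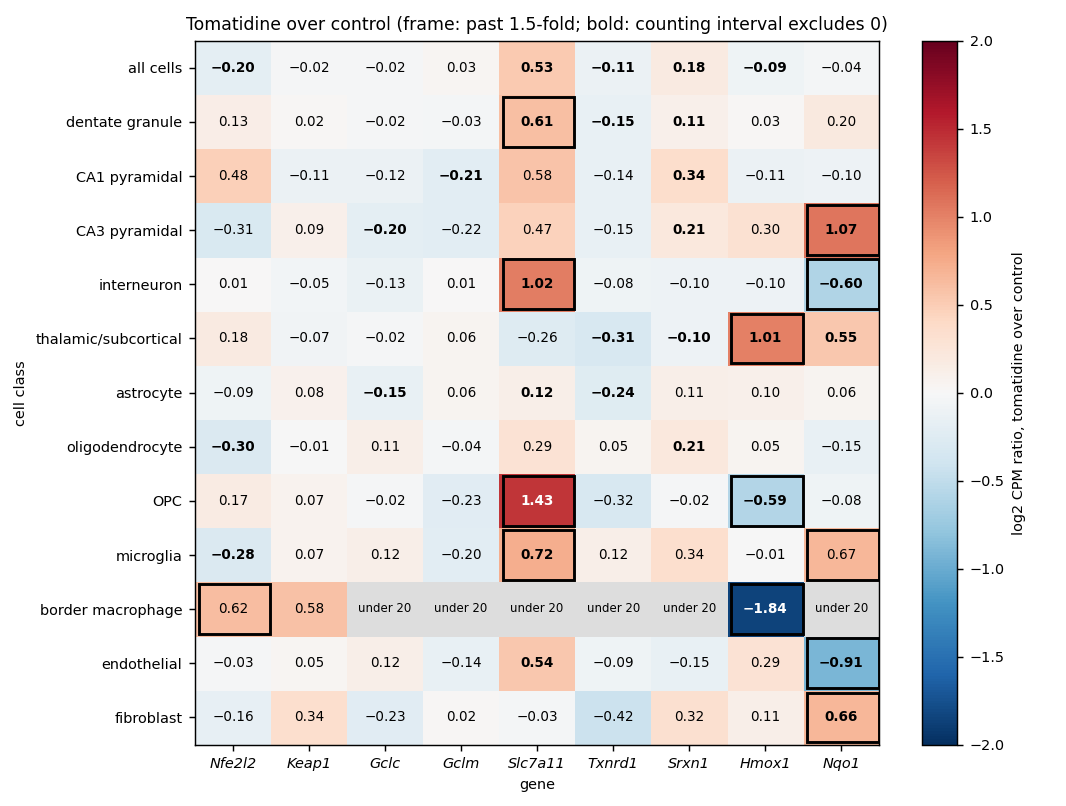
Heat map of the log2 ratio of CPM, tomatidine over control, for the 9 genes (columns) in all cells and in the 12 classes (rows), with the ratio written in each field, a black frame where it was past 1.5-fold, bold type where the counting interval excluded 0, and "under 20" where both libraries together held fewer than 20 UMIs. Slc7a11 was higher in most classes and close to 0 in fibroblast-like cells, and the column of Keap1 stayed near 0 outside border macrophage-like and fibroblast-like cells.

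Nfe2l2 (ENSMUSG00000015839, chr2:75675513-75704641, minus strand) was a gene of non-neuronal cells in both libraries. Microglia-like cells had the highest level, 184 CPM from 629 UMIs in control and 151 CPM from 440 UMIs in tomatidine. Border macrophage-like cells had 70.4 and 108 CPM, endothelial-like cells 87.8 and 86.1 CPM and fibroblast-like cells 87.2 and 77.8 CPM, and these 3 neighbours overlapped. They were followed by oligodendrocyte-like cells with 66.7 and 54.3 CPM and astrocyte-like cells with 56.4 and 53.2 CPM, which overlapped, and by OPC-like cells with 32.0 and 36.0 CPM. Every neuronal class lay lower, between 2.55 CPM in CA1-like control cells and 6.70 CPM in thalamic or subcortical neuron-like tomatidine cells. The mean of the 2 libraries in microglia-like cells was 55.6 times that in CA3-like cells. Between the libraries, Nfe2l2 was lower with tomatidine in the class that held most of it per UMI: the log2 ratio in microglia-like cells was -0.28 (-0.46 to -0.11). With every cell thinned to 1500 UMIs, 23.1% of control and 19.1% of tomatidine microglia-like cells had a UMI of Nfe2l2. That difference was -4.02 points (-8.32 to 0.34), an interval that includes 0, and 185 and 183 shallower cells were left out. Both microglia-like clusters had a ratio below 0, at -0.25 (-0.44 to -0.06) in the larger, with 576 and 388 UMIs, and -0.15 (-0.73 to 0.43) in the smaller, with 53 and 52 UMIs. The 15 microglia markers summed to 37936 CPM in control and 35423 CPM in tomatidine in these cells, with 3 of 15 higher, and their part in the result was not tested. Oligodendrocyte-like cells, the class with the most Nfe2l2 UMIs over both libraries together, had 1313 in control and 819 in tomatidine (log2 ratio -0.30, -0.42 to -0.17), and their 2 large clusters had -0.33 and -0.24. In the other 10 classes the interval included 0. Of these, astrocyte-like, endothelial-like, fibroblast-like and CA3-like cells had ratios below 0, from -0.03 to -0.31. Dentate granule-like, CA1-like, interneuron-like, thalamic or subcortical neuron-like, OPC-like and border macrophage-like cells had ratios above 0. The highest of them were 0.62 (-0.38 to 1.69) in border macrophage-like cells, with 13 and 28 UMIs, and 0.48 (-0.13 to 1.08) in CA1-like cells, with 49 and 48 UMIs. With CPM averaged over single cells the CA1-like ratio was -0.22.

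**Figure D3:**
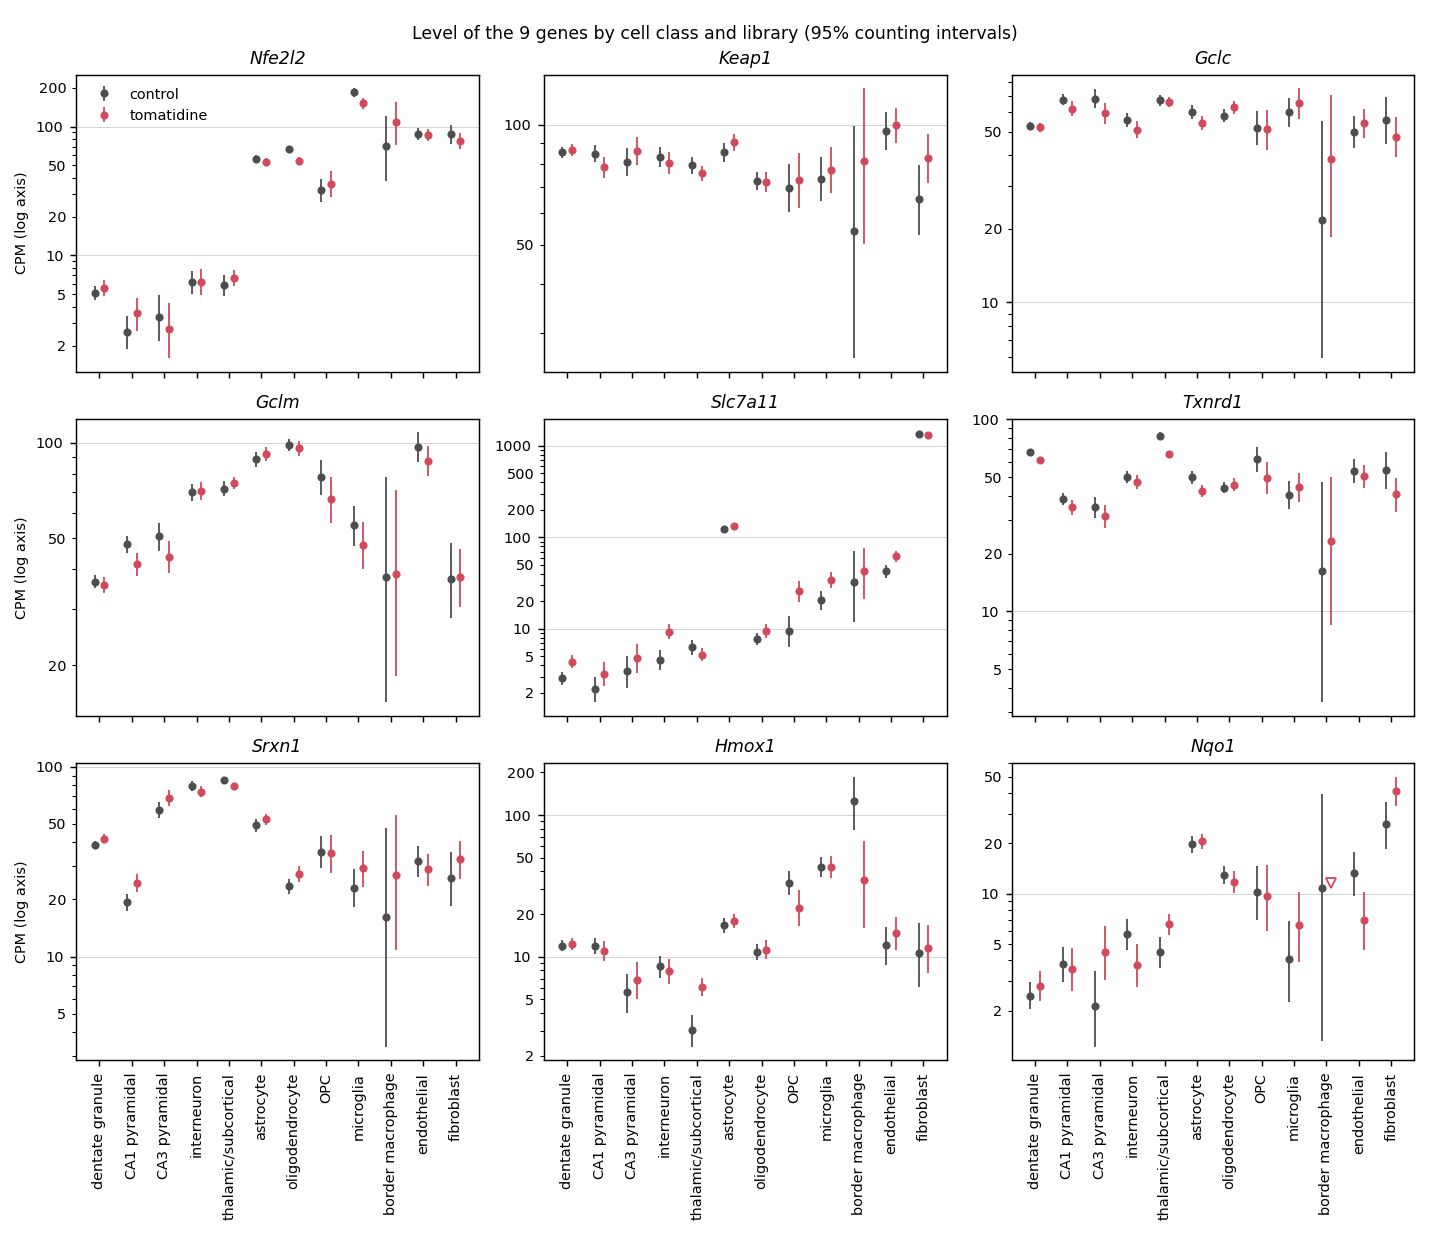
Level of each of the 9 genes (CPM, log axis, 1 panel a gene) in the 12 classes, with 1 point for the control and 1 for the tomatidine library and exact Poisson 95% intervals as bars. An open triangle stands at the level of 3 UMIs where the count was 0, which is the case for Nqo1 in border macrophage-like tomatidine cells, and the panels show the spread of Slc7a11 and Nfe2l2 over classes beside the even level of Keap1.

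Keap1 (ENSMUSG00000003308, chr9:21229730-21239361, minus strand), the repressor of Nrf2, was present at much the same level everywhere. Its level ran from 54.2 to 99.8 CPM over the 12 classes and 2 libraries, and the class mean differed by no more than 1.45-fold. Endothelial-like cells stood highest, at 96.7 and 99.8 CPM, above astrocyte-like cells at 85.3 and 90.4 CPM, and from there down each class overlapped the next. No interval of a class ratio excluded 0. The closest were fibroblast-like cells, with 98 and 201 UMIs, 65.3 and 82.8 CPM and a log2 ratio of 0.34 (-0.01 to 0.71), and CA1-like cells, with 84.6 and 78.3 CPM and -0.11 (-0.23 to 0.00).

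The subunits of glutamate-cysteine ligase, the first enzyme of glutathione synthesis, were spread differently over the classes. Gclc (ENSMUSG00000032350, chr9:77754535-77794485, plus strand), the catalytic subunit, was even. Thalamic or subcortical neuron-like cells had 67.2 and 66.2 CPM, CA1-like cells 67.7 and 62.2 CPM, and all neighbours overlapped down to OPC-like cells at 51.8 and 51.2 CPM. Only border macrophage-like cells lay apart below by library level, at 21.7 and 38.6 CPM. These levels rest on 4 and 10 UMIs, too few to set the class apart beyond counting error. Outside the 12 classes, the few ependymal-like cells (33 and 14) had the highest level, 187 CPM from 97 UMIs and 296 CPM from 69 UMIs. Gclm (ENSMUSG00000028124, chr3:122245557-122270732, plus strand), the modifier subunit, was highest in oligodendrocyte-like, endothelial-like and astrocyte-like cells. Oligodendrocyte-like cells had 98.6 and 96.0 CPM, endothelial-like cells 97.0 and 87.9 CPM and astrocyte-like cells 88.7 and 92.3 CPM, apart from all classes below. Dentate granule-like cells were lowest at 36.5 and 35.8 CPM, so the span was 2.69-fold. The ratios of both genes were small. Gclc was lower with tomatidine in CA3-like cells (513 and 397 UMIs, log2 ratio -0.20, -0.39 to -0.01) and astrocyte-like cells (870 and 897 UMIs, -0.15, -0.29 to -0.01). Gclm was lower in CA1-like cells, with 922 and 561 UMIs, 47.9 and 41.5 CPM and a log2 ratio of -0.21 (-0.36 to -0.05). Every other interval of both genes included 0.

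Slc7a11 (ENSMUSG00000027737, chr3:49892526-50443614, minus strand) encodes the light chain of the cystine and glutamate antiporter xCT, which brings in cystine for glutathione. It was by far the most unevenly spread of the 9 genes. Fibroblast-like cells had 1346 CPM from 2021 UMIs in control and 1316 CPM from 3196 UMIs in tomatidine. Astrocyte-like cells followed with 123 CPM from 1779 UMIs and 134 CPM from 2218 UMIs, and endothelial-like cells with 42.8 and 62.0 CPM. CA1-like cells were lowest at 2.18 and 3.25 CPM, and the span from the first to the last class was 490-fold. A UMI of Slc7a11 was seen in 70.6% of control and 66.1% of tomatidine fibroblast-like cells, against 4.88% and 6.27% of CA1-like cells, although the median CA1-like cell was deeper (24741 and 17462 UMIs against 3477 and 3148). With every cell thinned to 1500 UMIs, which left out 58 and 112 shallower fibroblast-like cells and 1 and 0 CA1-like cells, the shares were 67.9% and 63.9% in fibroblast-like and 0.459% and 0.579% in CA1-like cells. The thinned difference in fibroblast-like cells was -3.97 points (-11.4 to 3.78). The level per UMI in the class that held the most Slc7a11 did not differ beyond counting error, with a log2 ratio of -0.03 (-0.11 to 0.05). Those cells were more numerous in the tomatidine library, 525 against 286, and their part of all Slc7a11 UMIs was 41.7% in control and 47.0% in tomatidine. Without the fibroblast-like class, Slc7a11 stood at 13.8 CPM (2828 UMIs) and 18.2 CPM (3601 UMIs), and the log2 ratio went from 0.53 to 0.40 (0.33 to 0.47). With each of the 12 classes given equal weight, as the ratio of mean class CPM, it was 0.044. That mean is made mostly of the fibroblast-like level, 1346 and 1316 CPM, so it says little of the other classes.

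The ratio of Slc7a11 was above 0 in most other classes. In astrocyte-like cells the log2 ratio was 0.12 (0.03 to 0.21). Among the astrocyte-like clusters, the one led by Cyp4f15 and Ttll8 had 709 and 1051 UMIs and 221 and 266 CPM (log2 ratio 0.27, 0.13 to 0.41). It held 390 of 2374 control and 587 of 2668 tomatidine cells of the class. The cluster led by Fam107a had 78.1 and 71.8 CPM (-0.12, -0.31 to 0.07), and that led by Sfrp5 and Agt, with 272 and 537 cells, had 71 and 137 UMIs (-0.24, -0.66 to 0.19). The clusters made up different shares of the class in each library, so the make-up of the class and the level within its cells cannot be told apart in the class ratio. Past 1.5-fold were OPC-like cells, with 29 and 56 UMIs, 9.57 and 25.8 CPM and a log2 ratio of 1.43 (0.76 to 2.13). Interneuron-like cells had 69 and 114 UMIs, 4.59 and 9.34 CPM and 1.02 (0.58 to 1.48), and 31 of the 114 UMIs lay in 1 cell. Without the highest cell of each library the interneuron-like ratio was 0.75, and with interneurons selected by marker genes alone it was -1.21. Microglia-like cells had 71 and 100 UMIs, 20.8 and 34.3 CPM and 0.72 (0.27 to 1.18). Dentate granule-like cells had 136 and 153 UMIs, 2.88 and 4.40 CPM and 0.61 (0.27 to 0.95). These are classes of low level, in which a small number of UMIs decides the ratio. Endothelial-like cells had 149 and 239 UMIs, with a log2 ratio of 0.54 (0.23 to 0.84), just short of 1.5-fold. Thalamic or subcortical neuron-like cells were on the other side, at 6.27 and 5.24 CPM (-0.26, -0.61 to 0.10). Of their 124 control UMIs, 19 lay in 1 cell. Without the highest cell of each library the ratio there was -0.08.

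Fibroblast markers were also higher with tomatidine in several of these classes, and their part in the results was not tested beyond the recount given here. The 9 fibroblast markers summed to 46.9 CPM in control and 153 CPM in tomatidine in OPC-like cells (8 of 9 higher), to 59.9 and 108 CPM in microglia-like cells (9 of 9), to 16.0 and 27.6 CPM in interneuron-like cells (9 of 9) and to 19.9 and 25.3 CPM in dentate granule-like cells (8 of 9). In thalamic or subcortical neuron-like cells, where Slc7a11 was not higher, they summed to 20.2 and 12.7 CPM (1 of 9). In astrocyte-like cells they summed to 84.5 and 77.3 CPM (5 of 9), and in endothelial-like cells to 770 and 794 CPM (7 of 9), while Slc7a11 was higher in both. For comparison, fibroblast-like cells held 12519 and 13608 CPM. The 11 mural markers were also higher in OPC-like cells (28.1 and 96.9 CPM, 8 of 11) and microglia-like cells (45.9 and 97.4 CPM, 11 of 11). Slc7a11 was recounted after every cell with a UMI of any fibroblast marker had been left out, which removed 24.4% of control and 27.0% of tomatidine cells. Over all remaining cells it had 1576 and 1982 UMIs and a log2 ratio of 0.42. In microglia-like cells the ratio was 0.82 (46 and 67 UMIs), in OPC-like cells 1.05 (17 and 24 UMIs, 0.10 to 2.04), in interneuron-like cells 0.65 (44 and 51 UMIs) and in astrocyte-like cells 0.20 (1004 and 1306 UMIs). In dentate granule-like cells it was 0.35 (104 and 92 UMIs), no longer past 1.5-fold. In thalamic or subcortical neuron-like cells it turned to 0.31 (54 and 103 UMIs, -0.18 to 0.81). In endothelial-like cells the ratio turned to -1.38 (28 and 14 UMIs, -2.42 to -0.40). The recount left out 58.4% of control and 51.4% of tomatidine cells of that class. A deeper cell is more likely to hold a marker UMI, so the recount compared other cells. It cannot show what part fibroblast transcripts had in the class ratio. Mural markers in endothelial-like cells summed to 6716 and 8267 CPM (10 of 11 higher), and their part was not tested.

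**Figure D4:**
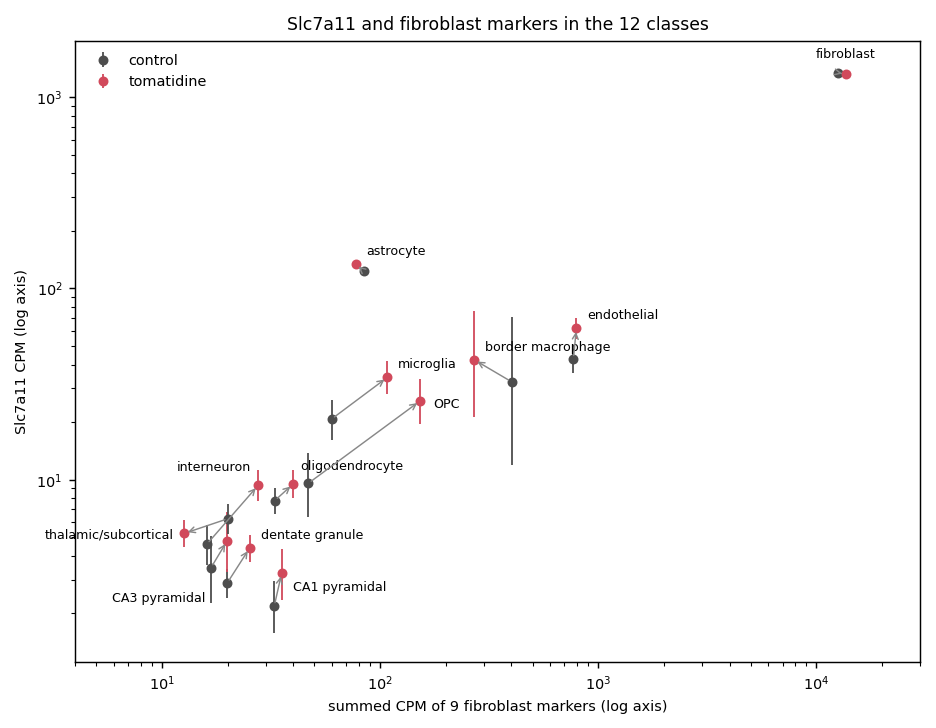
Level of Slc7a11 (CPM, log axis) against the summed level of the 9 fibroblast markers (CPM, log axis) in each class, with an arrow from the control to the tomatidine library and exact Poisson 95% intervals of Slc7a11 as bars. Arrows of OPC-like, microglia-like and interneuron-like cells point up and to the right, that of thalamic or subcortical neuron-like cells down and to the left, and fibroblast-like cells sit far above the rest at 1346 and 1316 CPM.

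Txnrd1 (ENSMUSG00000020250, chr10:82833951-82897712, plus strand), the cytosolic thioredoxin reductase, and Srxn1 (ENSMUSG00000032802, chr2:152105516-152111376, plus strand), the sulfiredoxin that restores overoxidised peroxiredoxins, were both highest in thalamic or subcortical neuron-like cells. Txnrd1 had 81.7 and 65.8 CPM in thalamic or subcortical neuron-like cells and 67.9 and 61.4 CPM in dentate granule-like cells, which overlapped. OPC-like cells came next at 62.1 and 49.8 CPM, and were highest with cells selected by marker genes alone. CA1-like cells, at 38.5 and 34.9 CPM, and CA3-like cells, at 34.9 and 31.4 CPM, were near the bottom of the order. Txnrd1 was lower with tomatidine in dentate granule-like cells (3204 and 2136 UMIs, log2 ratio -0.15, -0.23 to -0.07), astrocyte-like cells (723 and 702 UMIs, 49.9 and 42.4 CPM, -0.24, -0.39 to -0.08) and thalamic or subcortical neuron-like cells (1617 and 1894 UMIs, -0.31, -0.41 to -0.22). In the last class the ratio was smaller within its clusters, -0.11 (-0.29 to 0.07) in that led by Pou4f2 and Barhl1 and -0.04 (-0.17 to 0.10) in that led by Abhd12b, and the first gave 178 control and 667 tomatidine cells. Srxn1 had 84.8 and 79.3 CPM in thalamic or subcortical neuron-like cells and 79.3 and 73.9 CPM in interneuron-like cells, which overlapped. CA3-like cells came next at 59.3 and 68.5 CPM, while CA1-like cells, at 19.3 and 24.5 CPM, were near the bottom of the order, so the hippocampal pyramidal classes stood at different ends. Srxn1 was higher with tomatidine in CA1-like cells (372 and 332 UMIs, log2 ratio 0.34, 0.13 to 0.56), CA3-like cells (445 and 458 UMIs, 0.21, 0.02 to 0.40), oligodendrocyte-like cells (463 and 411 UMIs, 0.21, 0.02 to 0.41) and dentate granule-like cells (1835 and 1456 UMIs, 0.11, 0.01 to 0.21). Of the dentate granule-like tomatidine UMIs, 70 came from 1 cell, and without the highest cell of each library the ratio there was 0.06. It was slightly lower in thalamic or subcortical neuron-like cells (-0.10, -0.19 to -0.01). The ratio in CA1-like cells was -0.07 when cells with over 6000 genes or at least 10% mitochondrial UMIs were left out.

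Hmox1 (ENSMUSG00000005413, chr8:75093621-75100589, plus strand), the inducible haem oxygenase, was highest in border macrophage-like cells in control and in microglia-like cells in tomatidine. Microglia-like cells were also highest at a clustering resolution of 0.3 and with cells selected by marker genes alone. Border macrophage-like cells had 125 CPM from 23 UMIs in control and 34.7 CPM from 9 UMIs in tomatidine. Microglia-like cells had 43.3 CPM from 148 UMIs and 42.9 CPM from 125 UMIs, and overlapped with them, and OPC-like cells had 33.3 and 22.1 CPM. Astrocyte-like cells stood at 16.6 and 17.9 CPM, and the lowest class was thalamic or subcortical neuron-like cells at 3.03 and 6.11 CPM. In border macrophage-like cells the log2 ratio was -1.84 (-3.14 to -0.68). The 23 control UMIs lay in 12 of 54 cells, at most 6 in 1 cell, and the 9 tomatidine UMIs in 8 of 71 cells, and the ratio was -1.80 without the highest cell of each library. The 8 border macrophage markers were themselves lower there, 10995 and 9197 CPM with 1 of 8 higher. The 15 microglia markers summed to 21745.5 and 18417.1 CPM in the same cells, with 2 of 15 higher. The part of both in the result was not tested. OPC-like cells had 101 and 48 UMIs and a log2 ratio of -0.59 (-1.12 to -0.08). The 14 oligodendrocyte markers in OPC-like cells summed to 14775 CPM in control and 8601 CPM in tomatidine, with 0 of 14 higher, and their part was not tested either. In microglia-like cells the ratio was -0.01 (-0.37 to 0.34). Thalamic or subcortical neuron-like cells had 60 and 176 UMIs and a log2 ratio of 1.01 (0.58 to 1.46). The difference was in the cluster led by Pou4f2 and Barhl1 (21 and 160 UMIs, 1.05, 0.39 to 1.78) and not in that led by Abhd12b (30 and 16 UMIs, -0.28, -1.25 to 0.64). It did not hold under other cell selections, with -0.68 under the stricter cell filter and -0.74 at a clustering resolution of 0.3.

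Nqo1 (ENSMUSG00000003849, chr8:107388225-107403206, minus strand), the quinone reductase often used as a readout of Nrf2, was the least counted of the 9 genes, with 1462 and 1378 UMIs. Fibroblast-like cells were highest among the compared classes, with 26.0 CPM from 39 UMIs and 41.2 CPM from 100 UMIs. Astrocyte-like cells had 19.8 and 20.5 CPM and oligodendrocyte-like cells 256 and 177 UMIs. By library level each lay apart from the class above, with only 39 control UMIs in fibroblast-like cells. Among astrocyte-like clusters the one led by Myoc stood out, at 44.6 and 53.3 CPM. Neurons had 2.13 to 6.56 CPM, and border macrophage-like cells had 2 UMIs in control and 0 of 259324 UMIs in tomatidine, which allows a level of up to 11.6 CPM when 3 UMIs are taken as the limit that a count of 0 allows. Choroid plexus-like cells, too few in tomatidine to compare, had 84.2 CPM from 232 UMIs and 58.9 CPM from 25 UMIs. In fibroblast-like cells the log2 ratio was 0.66 (0.12 to 1.24), past 1.5-fold, and 0.73 without the highest cell of each library. Mural markers in these cells summed to 3709 and 5327 CPM (9 of 11 higher), and their part was not tested. Endothelial-like cells had 46 and 27 UMIs and a log2 ratio of -0.91 (-1.66 to -0.20). The choroid plexus transcript Ttr was at 2236 CPM in control and 65.6 CPM in tomatidine in the same endothelial-like cells, with astrocyte markers at 8076 and 5796 CPM (0 of 13 higher) and red cell markers at 4171 and 2076 CPM (0 of 5 higher), and their parts in the difference were not tested. Under the stricter cell filter the endothelial-like ratio was -0.36, no longer past 1.5-fold. Interneuron-like cells had 86 and 46 UMIs and -0.60 (-1.15 to -0.07), and Ttr there was at 300 and 18.6 CPM. With interneurons selected by marker genes alone the ratio was -0.04. CA3-like cells had 16 and 30 UMIs and 1.07 (0.15 to 2.05), and microglia-like cells had 14 and 19 UMIs and 0.67 (-0.40 to 1.78), an interval that includes 0.

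The 9 genes did not share 1 pattern over classes. Over the 24 points (12 classes in 2 libraries), Pearson's r of log2(CPM + 1) between pairs of them ran from -0.67 for Gclc and Hmox1 to 0.70 for Nfe2l2 and Slc7a11. Points of 1 class in the 2 libraries are not independent, and all genes share the depth of their class, so these values describe the classes. Nfe2l2 was most like Tor1aip1 (r = 0.98), Sft2d2 (0.97) and Agmo (0.97) among the 14071 genes compared. The closest to Slc7a11 were Gjb2, a connexin (0.98), Ranbp3l (0.97) and Slc13a3, a dicarboxylate carrier (0.97). Gclm was most like Smdt1 (0.95), Map1lc3b (0.93) and Tmtc2 (0.88), and Gclc most like Zfp35 (0.89), Rfesd (0.88) and Rundc1 (0.87). Srxn1 went with Kcnc1, a potassium channel of fast-spiking neurons, with Fgf18 and with Htr7 (0.90 each), and Txnrd1 with Ercc4 (0.87), Pqbp1 (0.87) and Polr1c (0.85). Hmox1 was most like Crlf3 (0.91), Mfsd1 (0.88) and Slc9a9 (0.88), and Nqo1 most like Pxmp2 (0.91), Suox (0.87) and Lpar1 (0.86). For Keap1, with its even level, the closest were Trak2 (0.85), Spop (0.83) and Filip1 (0.82). None of the 9 genes was among these, since they were left out of the search.

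Other genes of the pathway were counted from 7 lists of 94 genes, of which 91 were in the files and 90 had at least 20 UMIs over all cells. Of these, 57 were higher and 33 lower in the tomatidine library, beside 58.9% of all genes higher. Past 1.5-fold were 2 higher and 1 lower, beside 7.61% of all genes in either direction, and their median log2 ratio was 0.04, as against 0.03 over all genes. Among 15 partners and regulators of Nrf2, 11 were higher and 4 lower, with 0 past 1.5-fold. Bach2, a repressor related to Bach1, had 17.5 and 21.4 CPM (log2 ratio 0.29, 0.23 to 0.35), and Nfe2l3, a relative of Nrf2, had 25.1 and 19.0 CPM (-0.40, -0.46 to -0.34). Of 26 genes of glutathione use, 18 were higher and 8 lower. Both genes past 1.5-fold higher were of this list: Gpx3, the secreted glutathione peroxidase, with 3076 and 4661 UMIs and 14.9 and 23.2 CPM (0.64, 0.58 to 0.71), and the glutathione transferase Gstt2 with 776 and 1133 UMIs (0.59, 0.46 to 0.72). Of the Gpx3 UMIs, 808 and 1850 came from thalamic or subcortical neuron-like cells, which were more numerous with tomatidine and in which it had 40.8 and 64.2 CPM (0.65, 0.53 to 0.77), past 1.5-fold. In fibroblast-like cells Gpx3 had 53 and 42 UMIs and a ratio of -1.03, and in astrocyte-like cells it was at -0.01.

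In the thioredoxin and peroxiredoxin list 8 of 14 genes were higher, with Txn1 at -0.25 (58.1 and 48.8 CPM) and Txnrd3 at 0.34 as the extremes. Txn1, the cytosolic thioredoxin reduced by Txnrd1, was lower in each neuronal class, with log2 ratios of -0.33 in dentate granule-like, -0.49 in CA1-like, -0.40 in CA3-like, -0.30 in interneuron-like and -0.54 in thalamic or subcortical neuron-like cells, none of them past 1.5-fold. The NADPH list had 4 of 7 genes higher. Taldo1, transaldolase of the pentose phosphate pathway, had 26318 and 20264 UMIs and 127 and 101 CPM (log2 ratio -0.33, -0.36 to -0.31), and G6pdx was at 0.16. Of 6 genes for haem and iron, 3 were higher, from Fth1 at -0.09 to Blvra at 0.14. Of the 4 superoxide and peroxide enzymes 3 were higher, from Cat at -0.05 to Sod2 at 0.15. For conjugation, reduction and efflux 10 of 18 were higher, and among those with at least 100 UMIs the ends were Akr1b8 at 0.41 and Ptgr1 at -0.32. The 1 gene past 1.5-fold lower was Ugt1a7c of this list (26 and 14 UMIs, -0.85, -1.90 to 0.14), a gene named after its values were seen because it completes the count.

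**Figure D5:**
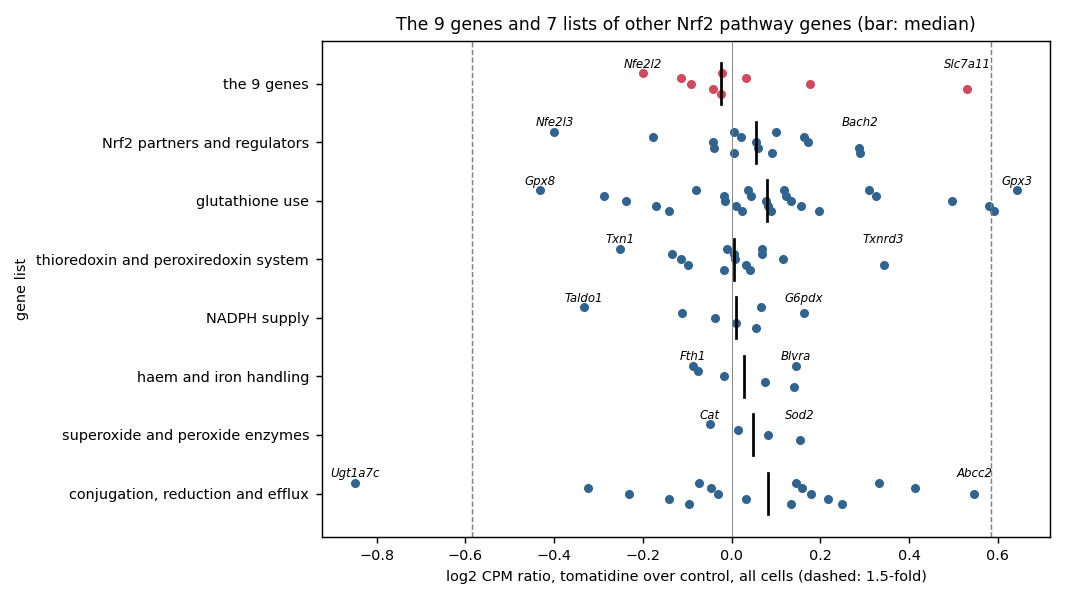
Log2 ratio of CPM over all cells, tomatidine over control, for each gene of the 7 pathway lists (points) with the median of each list as a line, and the 9 genes as a group of their own. List medians lay between 0.01 and 0.08, and the points past 1.5-fold were Gpx3, Gstt2 and Ugt1a7c.

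In the classes, 76 of 955 pairs of list gene and class were past 1.5-fold, 43 higher and 33 lower, where by class 4.56% to 29.5% of all genes were past it. Thalamic or subcortical neuron-like cells had the most calls, 10 higher and 5 lower of 85 genes, near the share of all genes called there (16.2%). Those with at least 100 UMIs were, on the higher side, Gstt1 (133 and 474 UMIs, log2 ratio 1.29, 1.01 to 1.58), Gsta4 (1407 and 4007 UMIs, 0.97, 0.88 to 1.06), Bach1 (272 and 615 UMIs, 0.64, 0.43 to 0.85), Gpx3 as given above, the glutathione transferase Gstt2 (111 and 306 UMIs, 0.92), Trim21, a ubiquitin ligase (56 and 169 UMIs, 1.05), the epoxide hydrolase Ephx1 (208 and 487 UMIs, 0.69) and the carbonyl reductase Cbr3 (37 and 90 UMIs, 0.74, 0.17 to 1.33). On the lower side were Gss, glutathione synthetase (962 and 927 UMIs, -0.59, -0.73 to -0.46), Sod3, the extracellular superoxide dismutase (72 and 61 UMIs, -0.78, -1.30 to -0.27), and Nfe2l3. The 9 markers of this class summed to 4736 and 3113 CPM in it, with 1 of 9 higher. The class came mainly from different clusters in each library, and the part of either was not tested. Under the stricter cell filter the median log2 ratio of the list genes in this class went from 0.07 to -0.08. Gstt1 was also past 1.5-fold higher in dentate granule-like (147 and 171 UMIs, 0.66) and interneuron-like cells (61 and 86 UMIs, 0.80). Nfe2l3 was past 1.5-fold lower in astrocyte-like (204 and 138 UMIs, -0.76, -1.08 to -0.44), OPC-like (127 and 46 UMIs, -0.98, -1.50 to -0.49) and thalamic or subcortical neuron-like cells (440 and 376 UMIs, -0.77, -0.97 to -0.57), and was at -0.13 in oligodendrocyte-like cells, which held most of its UMIs. Oligodendrocyte markers were lower in OPC-like cells (14775 and 8601 CPM, 0 of 14 higher) and astrocyte-like cells (7264 and 6037 CPM, 3 of 14). In thalamic or subcortical neuron-like cells they summed to 2839 and 3285 CPM (12 of 14). Their part in the results of these classes was not tested. Interneuron-like cells had lower Sod3 (84 and 24 UMIs, -1.51, -2.23 to -0.84) and Cbr3 (132 and 69 UMIs, -0.64, -1.08 to -0.21), and oligodendrocyte-like cells had higher Cbr3 (54 and 63 UMIs, 0.61, 0.06 to 1.16). OPC-like cells had lower Gstp1 (-0.73) and Txnip, the thioredoxin-binding protein (-0.84), and border macrophage-like cells had lower Txnip (152 and 115 UMIs, -0.89). Endothelial-like cells had lower Ephx2 (61 and 40 UMIs, -0.75), and fibroblast-like cells had higher Blvrb, a biliverdin reductase (41 and 102 UMIs, 0.62). In astrocyte-like cells 2 of 87 list genes were higher and 1 lower past the fold (5.84% of all genes in either direction), and in microglia-like cells 3 and 3 of 83 (8.89%).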

How the data were processed

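Fixed single-cell suspensions of flash-frozen hippocampus were profiled with a probe-based kit (Chromium Fixed RNA Profiling), 1 pooled library per group. The authors deposited raw UMI counts per gene and cell for 15912 control and 15185 tomatidine cells (279525565 and 259059908 UMIs), made with Cell Ranger on mm10. The file header gives version 7.1.0 and the submitters' processing notes 8.0.0. No cell annotation was used here. Cells were kept if they had at least 500 UMIs and 250 genes, less than 20% of UMIs from mitochondrial genes, and a complexity (log10 of genes over log10 of UMIs) above 0.8. Scrublet (scanpy 1.11.5) called 0 and 2 doublets with its own threshold, which was taken as not having worked, and the top 2% of each library by score was removed. Cells were clustered in Seurat 5.3.0 (R 4.3.3; RPCA integration, 2000 variable genes without the pathway genes, 30 components, Louvain resolution 0.8) into 37 clusters. A cluster was named where 1 marker list had the most raised members and no other list led its top genes, a rule written after the clusters had been seen. Other clusters, 2005 control and 2282 tomatidine cells (13.3% and 15.7%), stayed unnamed, and no class value covers them. Their share of a gene's UMIs ran from 3.49% for Slc7a11 in control to 27.9% for Srxn1 in tomatidine. For Srxn1 they held 2158 UMIs in control (22.1%) and 2996 in tomatidine. A class was compared where each library had at least 50 cells.

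Counts were summed per library and class and divided by the class total (Python 3.11.15, scipy 1.17.1). A ratio needed 20 UMIs over both libraries. TMM factors came from edgeR 4.0.16 and were used for scaling only. With 1 library per group no model was fitted. The members and gene lists were chosen with earlier results of these data known. Every member was described in every class. List genes were named where past 1.5-fold with at least 100 UMIs, or else, over all cells, as the highest and lowest of their list, with some such genes also given in the classes, and like genes as the 3 with the highest r. The pathway genes Gpx4, Ftl1 and Ugt1a6a are not analysed here. Gene positions are from GENCODE vM21 and promoters from RefSeq. The scripts were tested on simulated data. Alternatives covered the cell filter, doublets, clustering, scaling, thinning and the fold, and 2 more were added after seeing the data: leaving out cells with a fibroblast marker UMI, and leaving out the cell with the most UMIs of the gene.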

Additional observations from a re-analysis of the deposited data

How the results depend on the processing

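No paired analysis was possible because each group is 1 library, and for the same reason no replicate could be left out. The ratios rest on 20 or more UMIs, and those under about 100 UMIs have wide intervals. Of the values for all cells and the counts, 78 stayed within their interval or within 1.5 times and 23 moved. Of the single gene and class values, 1149 stayed, 52 moved and 3, all past 1.5-fold, reversed. A value nearer to no difference could change sign and still count as stayed or moved. Nfe2l2 in interneuron-like cells kept its sign in 5 of 11 alternatives. Gclm in fibroblast-like cells went from 0.02 to -2.15 with cells selected by marker genes alone. TMM scaling shifted no class by over 0.1.

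Over all cells, giving each class equal weight moved the log2 ratio of Slc7a11 to 0.044, of Hmox1 to -0.55, of Nfe2l2 to -0.040, of Srxn1 to 0.10, of Keap1 to 0.080 and of Gclm to -0.069. These are ratios of mean class CPM, in which classes of high level weigh most. For Slc7a11 that was fibroblast-like cells, at 1346 and 1316 CPM. For Hmox1 it was border macrophage-like cells, at 125 and 34.7 CPM from only 23 and 9 UMIs. The mean of per-cell CPM gave 0.65 for Slc7a11, 0.021 for Hmox1, 0.022 for Keap1, -0.033 for Gclm, -0.060 for Txnrd1 and 0.091 for Srxn1. The stricter cell filter (at most 6000 genes and under 10% mitochondrial UMIs) gave 0.66 for Slc7a11, 0.028 for Keap1, 0.033 for Gclc and -0.030 for Gclm. TMM factors gave -0.053 for Keap1. Without cells with a fibroblast marker UMI, Slc7a11 was at 0.42 and Nqo1 at 0.11. The causes of these shifts were not tested otherwise.

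Among class values past 1.5-fold, 3 reversed. Slc7a11 in interneuron-like cells was at -1.21 with cells selected by marker genes alone, and Hmox1 in thalamic or subcortical neuron-like cells was at -0.68 under the stricter filter and -0.74 at resolution 0.3. In the second case the class is made of other clusters at that resolution, and the causes were not tested otherwise. Slc7a11 in endothelial-like cells, at 0.54 and not past 1.5-fold, was at -1.38 without cells with a fibroblast marker UMI. That recount left out 58.4% of control and 51.4% of tomatidine cells of the class. Pairs of gene and class past the fold numbered 13 of 102, 24 of 102 with a difference of 25% as the mark, and 7 of 55 with the marker selection, which leaves fewer classes. They numbered 9 to 13 under the other settings. Pairs of list gene and class numbered 121 of 1041 with a minimum of 1 UMI, against 76 of 955. The class with the highest level was the same for 4 of 9 genes with the marker selection, 7 of 9 at resolution 0.3 and with the mean of per-cell CPM, and 9 of 9 at resolution 1.5 and without integration.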
